A study of Mus musculus with 20 samples.

Results

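The transcription factors that build the embryonic heart were examined as a group of 10 genes: Nkx2-5, Gata4, Gata5, Gata6, Tbx5, Tbx20, Mef2c, Hand1, Hand2 and Isl1. They were chosen by name, as genes whose dose matters when the heart is divided into chambers, and they are 10 of the 48795 genes in the table. All 10 passed the filter on low values used for testing, which asked for 10 normalised reads or more in 5 or more libraries of a fit. The question was how high each factor stood, whether it differed between each mutant strain and its own wild-type (WT) littermates, and how small a difference could have been seen with 5 hearts against 5.

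RNA was sequenced from whole mouse hearts at embryonic day E13.5, in 20 libraries of 5 hearts per group. Dp3Tyb embryos carry the allele Dp(16Mir802-Zbtb21)3TybEmcf and Ts1Rhr embryos carry Dp(16Cbr1-Fam3b)1Rhr, both of them duplications of part of mouse chromosome 16 that model Down syndrome. None of the 10 factors lies on that chromosome, and the Ts1Rhr segment is contained in the Dp3Tyb segment. The controls were WT littermates of Dp3Tyb and, separately, WT littermates of Ts1Rhr, and all animals were on a C57BL/6J background. The labels name heart defects for all 5 Dp3Tyb hearts and for Ts1Rhr replicates 1 and 2, although the study describes Ts1Rhr embryos as free of them, so Ts1Rhr was kept as 1 group by genotype.

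These factors work as a network rather than as a chain. NK2, GATA and T-box proteins bind the same regulatory sequences and each other, and together they switch on the contractile and conduction genes of the cardiomyocyte. Loss of a single copy of NKX2-5, GATA4, GATA6, TBX5 or TBX20 is known to cause septal and other heart malformations in people, which is why modest differences in level are of interest. HAND proteins act in the growth of the ventricles and of the outflow tract, and ISL1 marks the progenitors that are added to the heart at both of its poles.

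The libraries held between 6.60 M and 19.6 M reads, and values are normalised read counts, that is reads divided by a library factor that the authors set over all 20 libraries. Mitochondrially encoded transcripts took over 10% of the reads in 7 libraries (10.5% to 19.5%) and 4.85% to 7.17% in the other 13. In the Dp3Tyb cohort these were replicate 5 of each genotype, and in the Ts1Rhr cohort they were replicates 1, 2 and 4 of WT and replicates 1 and 2 of Ts1Rhr. A second difference between hearts was the level of 12 lung and foregut markers, whose sum ran from 234 to 1123. Expression of 13 genes in 3 copies in both strains was measured as a check of the labels, and its sum did not overlap with WT in Dp3Tyb (27794 to 30130 against 19576 to 21216) or in Ts1Rhr (26522 to 28678 against 19551 to 21006). Cardiomyocyte markers were abundant in every library, with a sum over 12 genes of at least 193443.

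Promoter sequences were taken from the RefSeq table of build GRCm38.p6 for Gata5, Hand2, Tbx20, Mef2c, Isl1 and Nkx2-5, 8 promoters in all. Those of Hand2 and Nkx2-5 are printed because these genes had slopes of opposite sign with the mitochondrial read share described further on. Each is the run of 250 bases just before a transcript start in that table, 5′ to 3′ on the strand of the gene. For Hand2 this is the start of the gene, whereas the Nkx2-5 window lies inside the annotated span of the gene. They are printed with matches to short binding motifs in capitals.
Hand2 promoter (chr8:57320733-57320982, plus strand): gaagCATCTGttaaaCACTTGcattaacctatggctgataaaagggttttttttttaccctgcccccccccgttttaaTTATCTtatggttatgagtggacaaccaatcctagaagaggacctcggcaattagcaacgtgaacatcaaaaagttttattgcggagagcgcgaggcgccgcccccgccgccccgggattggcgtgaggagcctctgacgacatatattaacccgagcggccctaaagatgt
Nkx2-5 promoter (chr17:26841566-26841815, minus strand): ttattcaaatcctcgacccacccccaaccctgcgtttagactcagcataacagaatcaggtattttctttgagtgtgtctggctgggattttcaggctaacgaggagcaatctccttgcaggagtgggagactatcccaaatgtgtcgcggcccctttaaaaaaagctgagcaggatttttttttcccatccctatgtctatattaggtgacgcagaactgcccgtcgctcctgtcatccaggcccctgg
The motifs searched on both strands were AGATAA for GATA factors, AGGTGT for T-box factors, CAAGTG for NK2 factors and the E-box CATCTG for HAND proteins with their partners. They occur in 9.99%, 11.8%, 11.6% and 14.4% of 32851 promoter windows of this length. The Hand2 window holds 1 E-box, 1 NK2 and 1 GATA match, none of them overlapping, and the Nkx2-5 window holds no match. Of the other 6 windows the 3 of Mef2c hold 1 match each. A match is a string of letters and no evidence that a factor binds there.

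The order of levels was described per kilobase of exon, since the genes differ in length. The length was that of all annotated exons of a gene merged, from 1719 bases for Nkx2-5 to 17132 for Mef2c. It is not the length of the transcripts made in the heart, and the annotation used for counting is not given. The order depends on this choice: before division Mef2c, at a mean of 2379, stood above Hand2 (1880), Tbx5 (1634) and Nkx2-5 (1046). Tbx20, a T-box repressor and activator of the chamber myocardium, had the highest mean over all libraries. It stood at 841 ± 63.9 normalised read counts per kb (SD, n = 20), and Hand2 followed at 794 ± 234. The place of Hand2 depended on the library, as described further on. Nkx2-5, the NK2 homeodomain factor of the cardiomyocyte, stood at 608 ± 105 and the zinc finger factor Gata4 at 596 ± 55.2. Tbx5, which patterns the atria and the left ventricle, stood at 348 ± 62.3 and Gata6 at 271 ± 51.4. Hand1, at 173 ± 60.3, Gata5, a GATA factor of the endocardium, at 144 ± 21.5, and the MADS-box factor Mef2c, at 139 ± 16.4, followed. Isl1 was far below all others at 21.3 ± 5.15.

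Several neighbours in this order changed places between libraries. Tbx20 was above Hand2 in 13 of 20 libraries, the 13 under 10% mitochondrial reads, and below it in the 7 over 10%. Hand2 stood at 869 to 1347 per kb in those 7 libraries and at 566 to 793.5 in the other 13. It was above Nkx2-5 in 15 of 20, and every library in which it was below Nkx2-5 was under 10%. Nkx2-5 was above Gata4 in 12 of 20, Hand1 above Gata5 in 12 and Gata5 above Mef2c in 10. Gata4 was above Tbx5, Tbx5 above Gata6 and Gata6 above Hand1 in all 20. Mef2c was above Isl1 in all 20 libraries with no overlap of their ranges. Levels per kb were at the 76.0 percentile or higher of 15348 tested genes for every factor but Isl1, which was at the 29.5 percentile and had between 22 and 159 reads per library.

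**Figure D1:**
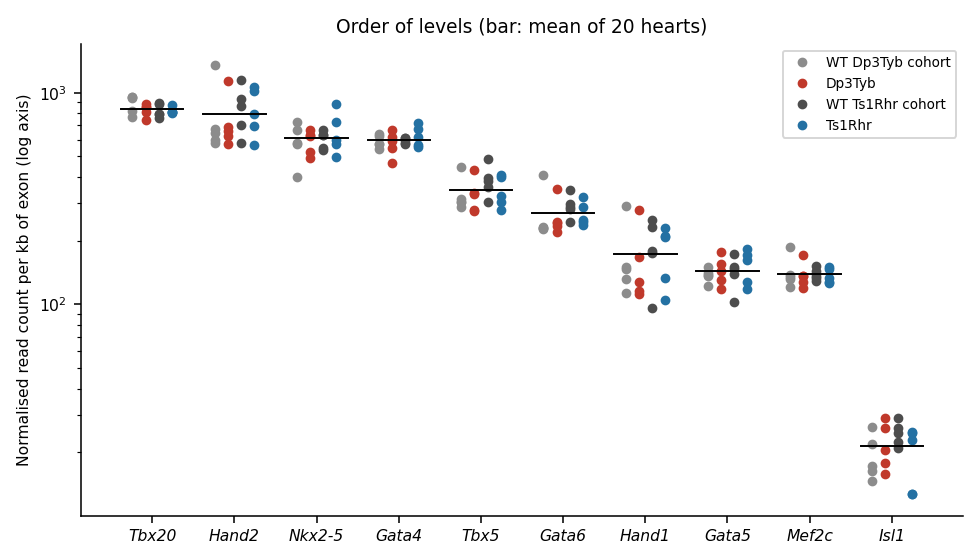
Level of each factor in normalised read counts per kb of exon (log axis), 1 point per heart, coloured by group, with a bar at the mean of 20 hearts. Mean levels run from 841 for Tbx20 to 21.3 for Isl1, and the 4 groups overlap for every factor.

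No factor differed between Dp3Tyb hearts and WT littermates in a way that passed the test. In limma with Benjamini-Hochberg adjustment, 0 of the 10 had an adjusted p under 0.05, against 0.0542% of all 14763 genes tested (0.0474% higher and 0.00677% lower), 0 had an unadjusted p under 0.05 (2.8% of all genes), and 0 had groups that did not overlap (0.975% of all genes). DESeq2 and the quasi-likelihood test of edgeR on recovered reads called none of the 10 either. The fitted differences were small, 3 higher and 7 lower, with a median log2 fold change of -0.026 against -0.0027 over all genes. In bulk tissue a lower level can come from fewer cells of a type or from less RNA per cell, and these cannot be told apart. Of the 12 cardiomyocyte markers 1 was higher and 11 were lower in Dp3Tyb (median log2 fold change -0.11), of 12 mesenchymal markers 11 were higher and 1 was lower (0.12), and of 10 macrophage markers 10 were higher (0.24). In each of the 3 lists no gene was called, all markers were detected and the summed levels of the groups overlapped, at 228868 to 327996 in WT and 193443 to 279823 in Dp3Tyb for cardiomyocyte markers, 94316 to 137733 and 120993 to 152853 for mesenchymal markers, and 1289 to 2116 and 1815 to 2171 for macrophage markers. At a limma unadjusted p under 0.05 there were 1 cardiomyocyte, 0 mesenchymal and 1 macrophage marker, beside 2.8% of all genes. The part of these cell types in the levels of the factors was not tested.

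Nkx2-5 illustrates the spread between littermates. WT hearts had 983, 1141, 990, 1251 and 687 normalised read counts, and Dp3Tyb hearts had 1070, 1141, 1085, 842 and 902. The lowest heart of all was WT replicate 5, the library with the most mitochondrial reads, and the groups overlapped. The log2 fold change was 0.02 ± 0.15 (SE).
Gata4, which shares binding partners with Nkx2-5, was narrower. Its values were 3256, 3618, 3254, 3563 and 3074 in WT and 3782, 3351, 3504, 2643 and 3113 in Dp3Tyb, with a log2 fold change of -0.04 ± 0.10 (SE). The Dp3Tyb hearts held both the highest and the lowest value. Gata5 lay between 394 and 593 in the 10 hearts (0.07 ± 0.11 on the log2 scale).

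Gata6, the GATA factor of outflow tract and smooth muscle development, showed 1 outlying heart on each side. Its values were 2103, 2111, 2116, 2144 and 3764 in WT and 2230, 2250, 2167, 2018 and 3224 in Dp3Tyb. The high value of each group belongs to replicate 5, the 2 libraries of this cohort over 10% mitochondrial reads, and the other 8 hearts lie between 2018 and 2250. The log2 fold change was -0.02 ± 0.18 (SE).
Hand2 had the same shape. WT hearts stood at 1369, 1532, 1417, 1602 and 3189 and Dp3Tyb hearts at 1627, 1474, 1561, 1348 and 2688, with a log2 fold change of -0.03 ± 0.25 (SE). Replicate 5 was again the highest of each group. Hand1, its relative of the left ventricle, was at 584 and 559 in these same 2 libraries and between 222 and 336 in the other 8 (log2 fold change -0.07 ± 0.30).

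Among the remaining factors, Tbx5 was at 2102 in WT and at 2029 in Dp3Tyb replicate 5, and between 1291 and 1571 elsewhere in the cohort (log2 fold change -0.0039 ± 0.15). Mef2c was between 2045 and 3200 (log2 fold change -0.04 ± 0.13). Tbx20 was the most even, at 9245, 11489, 9826, 11353 and 11433 in WT and 10559, 10247, 10299.9, 8900 and 9723 in Dp3Tyb, and its log2 fold change of -0.10 ± 0.08 was the largest relative to its error among the 10 (limma unadjusted p = 0.270, not called after adjustment). It ran from -0.15 without WT replicate 1 to -0.06 without Dp3Tyb replicate 4. Isl1 stood at 86.9, 68.5, 104, 58.3 and 64.6 in WT and 80.9, 62.6, 70.3, 115 and 103 in Dp3Tyb. It had the largest fitted difference, 0.17 ± 0.21 on the log2 scale, well inside its spread.

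**Figure D2:**
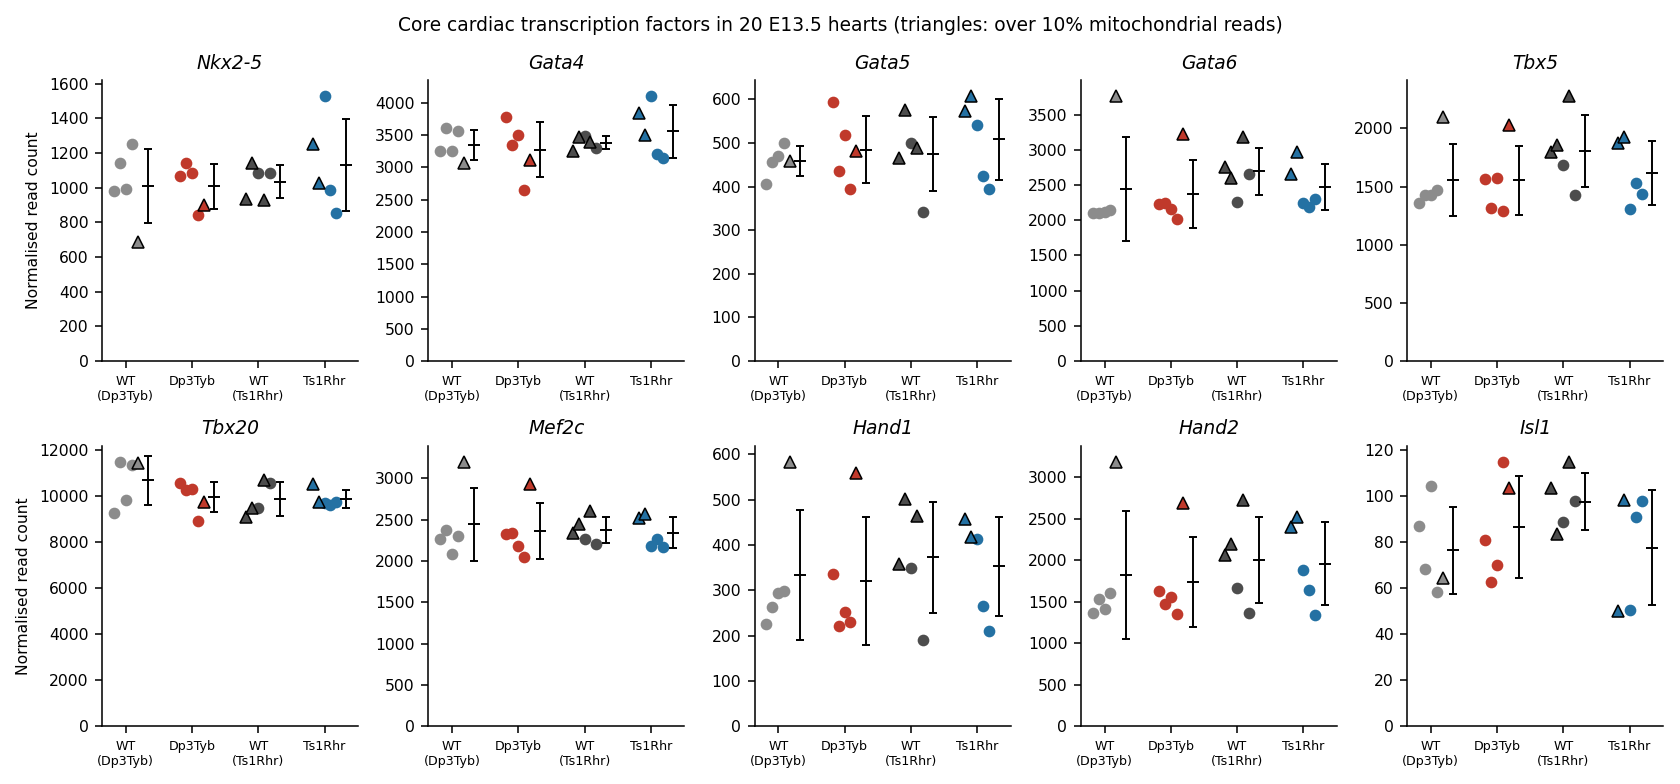
Normalised read count of each factor (axis from 0) in 4 groups of 5 hearts, with the mean and SD beside the points and triangles for libraries over 10% mitochondrial reads. Groups overlap in every panel, and the triangles are the highest points of most groups for Gata6, Tbx5, Mef2c, Hand1 and Hand2.

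The comparison of Ts1Rhr with its littermates also gave 0 of 10 factors with an adjusted p under 0.05 in limma (0.0269% of 14867 genes), 0 with an unadjusted p under 0.05 (5.52%) and 0 without overlap (1.12%). DESeq2 and edgeR called none. Fitted differences were higher for 4 and lower for 6 factors, with a median log2 fold change of -0.027 against -0.0016 over all genes. Both strains were set against separate littermates, so their estimates share no library.

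Isl1 had the largest fitted difference of the 10 factors. WT littermates of Ts1Rhr had 104, 83.5, 88.7, 115 and 97.8 normalised read counts, and Ts1Rhr hearts had 50.3, 98.6, 50.6, 91.1 and 97.9. Replicates 1 and 3 of Ts1Rhr were the lowest of the 20 hearts and the other 3 lay inside the WT range. The log2 fold change was -0.38 ± 0.21 (SE, limma unadjusted p = 0.0979, adjusted p = 0.795), with an interval from -0.85 to 0.08. It ranged from -0.49 without Ts1Rhr replicate 2 to -0.25 without Ts1Rhr replicate 1.
Tbx5 followed with -0.16 ± 0.13 and Gata6 with -0.12 ± 0.10 on the log2 scale. Gata6 stood at 2758, 2600, 2264, 3191 and 2656 in WT and at 2653, 2974, 2247, 2194 and 2298 in Ts1Rhr, and the 3 Ts1Rhr hearts under 10% mitochondrial reads were the lowest of their group. Tbx5 had 1793, 1861, 1687, 2278 and 1427 in WT and 1874, 1930, 1308, 1530 and 1435 in Ts1Rhr, where again replicates 1 and 2 stood above the other 3.

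The remaining 7 factors had log2 fold changes between -0.07 and 0.10. Nkx2-5 was at 937, 1142, 1084, 926 and 1084 in WT and at 1253, 1025, 1527, 989 and 852 in Ts1Rhr (0.10 ± 0.14). The Ts1Rhr hearts held both the highest and the lowest value, and the spread in Ts1Rhr was 265 against 97.1 in WT (SD, n = 5 each). Gata4 gave 0.07 ± 0.08 and Gata5 0.10 ± 0.15. Tbx20 (0.0018 ± 0.07) and Mef2c (-0.02 ± 0.07) were the 2 most precisely measured of all. Hand2 was at 2058, 2200, 1665, 2727 and 1366 in WT and at 2401, 2521, 1878, 1643 and 1340 in Ts1Rhr (-0.03 ± 0.20), and Hand1 had -0.07 ± 0.27. Among marker lists in Ts1Rhr, 10 of 12 endothelial and endocardial markers (median log2 fold change 0.14), 10 of 10 erythroid markers (0.24) and 8 of 10 macrophage markers (0.26) had higher fitted values, and 5 of 12 cardiomyocyte markers did (-0.01). None was called, the summed levels of the groups overlapped in each list, and their part in the levels of the factors was not tested. At a limma unadjusted p under 0.05 there were 4 macrophage, 1 endothelial and endocardial, 1 cardiomyocyte and 0 erythroid markers, beside 5.52% of all genes.

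Within Ts1Rhr, the 2 hearts whose labels name defects stood above the other 3 for Hand2 (2401 and 2521 against 1340 to 1878), Gata6 (2653 and 2974 against 2194 to 2298), Tbx5 (1874 and 1930 against 1308 to 1530), Mef2c (2517 and 2565 against 2170 to 2271), Gata5 (572 and 607 against 395 to 542), Tbx20 (9755 and 10528 against 9591 to 9726) and Hand1 (457 and 418 against 210 to 414). These 2 are also the only Ts1Rhr libraries over 10% mitochondrial reads, so the label and the read share cannot be told apart, and no test was made. Nkx2-5, Gata4 and Isl1 overlapped between these hearts.

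The difference of the change between strains was tested directly in a limma fit of all 20 libraries. None of the 10 factors passed, with adjusted or unadjusted p (0.013% and 1.52% of 15348 genes). Isl1 had the largest contrast, 0.55 ± 0.31 on the log2 scale (limma unadjusted p = 0.0908, not called after adjustment), and all others were between -0.11 and 0.16. The WT hearts of the 2 cohorts were compared as well. No factor passed and 0% of genes did, with 0 factors at an unadjusted p under 0.05 where 5.84% of genes were and 0 without overlap where 0.977% of genes were, while DESeq2 called 5 genes and none of the factors. With array weights, which let limma down-weight variable libraries, 3297 genes passed and so did 2 factors, Gata6 (0.27, adjusted p = 0.0205) and Tbx5 (0.31, adjusted p = 0.0213), both higher in the WT littermates of Ts1Rhr. Isl1 (0.37 ± 0.22) and Tbx5 (0.22 ± 0.15) had the largest log2 differences there, both toward the WT littermates of Ts1Rhr. That order rested on 1 library, since without replicate 5 of the WT littermates of Dp3Tyb the differences of Hand2 (0.3995) and Hand1 (0.3942) were larger than that of Tbx5 (0.3315), which was 0.1314 without replicate 4 of the WT littermates of Ts1Rhr.

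The data bound these differences more tightly for some factors than for others. The 95% confidence interval lay inside a 2-fold change in either direction for 10 of 10 factors in both strains. It lay inside a 1.5-fold change for 8 of 10 in each strain, the exceptions being Hand1 and Isl1 in both. For comparison, the 13 genes in 3 copies had a median log2 fold change of 0.51 in Dp3Tyb and 0.52 in Ts1Rhr.

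The smallest detectable change was computed from the standard error and the degrees of freedom of each fit, as the increase with 80% power at an unadjusted 2-sided p of 0.05. With 5 hearts against 5 it was lowest for Tbx20, at 1.197-fold in Dp3Tyb and 1.15-fold in Ts1Rhr. Gata4 followed in Dp3Tyb with 1.23-fold (1.18-fold in Ts1Rhr), and Mef2c needed 1.31-fold in Dp3Tyb and 1.16-fold in Ts1Rhr. The changes for Gata5 (1.26-fold and 1.38-fold), Tbx5 (1.37-fold and 1.33-fold), Nkx2-5 (1.38-fold and 1.34-fold) and Gata6 (1.47-fold and 1.25-fold) were intermediate, in Dp3Tyb and Ts1Rhr in turn.
The least sensitive were Isl1 (1.56-fold and 1.57-fold), Hand2 (1.69-fold and 1.53-fold) and Hand1 (1.88-fold and 1.78-fold). To pass the adjustment over all genes a larger change was needed, from 1.48-fold for Tbx20 to 3.99-fold for Hand1 in Dp3Tyb and from 1.36-fold to 3.64-fold in Ts1Rhr. The factors were no more precise than other genes, with a median half-width of the interval of 0.33 on the log2 scale in Dp3Tyb (0.30 over all genes) and 0.29 in Ts1Rhr (0.26 over all genes).

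**Figure D3:**
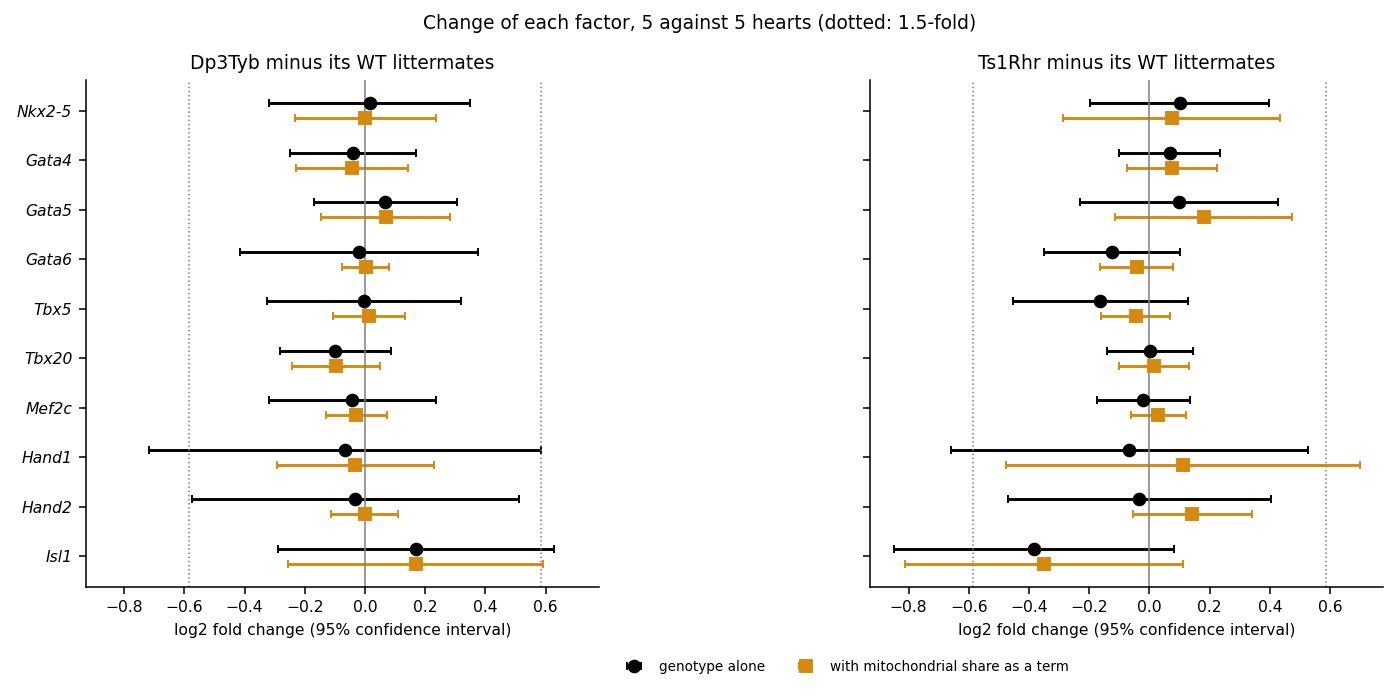
Log2 fold change of each factor in each strain minus its WT littermates (points) with its 95% confidence interval (bars), for genotype alone and with the mitochondrial read share as a further term, and dotted lines at a 1.5-fold change. Every interval includes 0, the widest for genotype alone is that of Hand1 in each strain, and those of Gata6, Tbx5 and Hand2 narrow in both panels with the added term.

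What set these limits differed by factor. Within groups, the SD of the log2 level ran from 0.11 for Tbx20 and 0.14 for Gata4 to 0.42 for Hand2 and 0.53 for Hand1, against a median of 0.22 over all genes. Counting noise alone would give an SD of 0.034 for Hand2 and 0.081 for Hand1, so most of their spread was not counting noise, whereas for Isl1 counting noise would give 0.17 of an SD of 0.36. The mitochondrial read share of the library took up 91.0% of the within-group variance of Gata6, 90.9% of that of Hand2, 86.8% for Tbx5, 85.7% for Mef2c and 65.6% for Hand1. For Nkx2-5 it took up 27.4%, and for Gata4, Gata5, Tbx20 and Isl1 less than 10%, beside a median of 41.4% over all genes.

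Fitted as a term over 20 libraries in 4 groups, a choice made after the data had been seen, the mitochondrial share split the factors. Hand1 was higher by 0.89 ± 0.16 and Hand2 by 0.83 ± 0.06 (log2 per 10 percentage points, SE), which is 1.85-fold and 1.77-fold. Gata6 was higher by 0.52 ± 0.04, Tbx5 by 0.49 ± 0.05 and Mef2c by 0.33 ± 0.04, all with an adjusted p under 0.05 in limma. Nkx2-5 was lower, at -0.28 ± 0.11 (adjusted p = 0.0417), a call that was lost without any 1 of 13 of the 20 libraries (adjusted p from 0.0516 to 0.448 in limma) and whose slope was -0.14 without WT replicate 5 of the Dp3Tyb cohort.
Gata4 (-0.05 ± 0.07), Gata5 (0.15 ± 0.11), Tbx20 (0.06 ± 0.05) and Isl1 (0.04 ± 0.18) did not pass. When values were scaled to non-mitochondrial reads the median slope of all genes moved from -0.02 to -0.15, Gata4 was called lower as well (-0.18, adjusted p = 0.0127 in limma), and the slopes of Tbx20 (-0.07) and Isl1 (-0.09) changed sign without being called. Thus 5 factors were higher and 1 lower among the 10, in a transcriptome in which 29.7% of genes were higher and 31.7% lower with the same term. The share of 6 in 10 is near the 61.4% of all genes. The slopes of Hand1 and Hand2 lay at the 97.5 and 96.9 percentiles of all genes, those of Gata6 and Tbx5 at the 90.4 and 89.3 percentiles.

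Because the libraries fall into 2 clusters by this share, correlations were taken within each. They used log2 levels pooled over the 4 groups, without subtraction of group means, and permutations across groups. The correlations with lung and foregut markers further on were taken in the same way. Among the 7 libraries over 10%, Pearson's r with the share was 0.971 for Gata6 (exact permutation p = 0.000595, adjusted p = 0.0119 over 20 relations; Spearman's rho = 0.964) and 0.924 for Hand2 (exact permutation p = 0.00238, adjusted p = 0.0238; rho = 0.893). Nkx2-5 had r = -0.859 (exact permutation p = 0.0107, adjusted p = 0.0535), and Tbx5, Mef2c and Hand1 had 0.856, 0.840 and 0.579, with adjusted p-values of 0.0540, 0.0570 and 0.315 in the same exact permutation test. No rank correlation in either cluster passed the adjustment, the lowest adjusted p being 0.0556.
Among the 13 libraries under 10% only Tbx5 passed (r = 0.724, permutation p = 0.00442, adjusted p = 0.0295; rho = 0.637, adjusted p = 0.0680), and a fit of these 13 alone called none of the 10. In the Dp3Tyb cohort alone the term called 6 factors and 8529 of 14763 genes, and in the Ts1Rhr cohort alone it called 4 factors and 5646 of 14867 genes, with Hand1 (adjusted p = 0.0796) and Nkx2-5 (adjusted p = 0.660) lost. The 2 libraries with the highest share were also the 2 shallowest, and with the log2 total reads as a further term 5 factors stayed called and Nkx2-5 did not (adjusted p = 0.557).

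**Figure D4:**
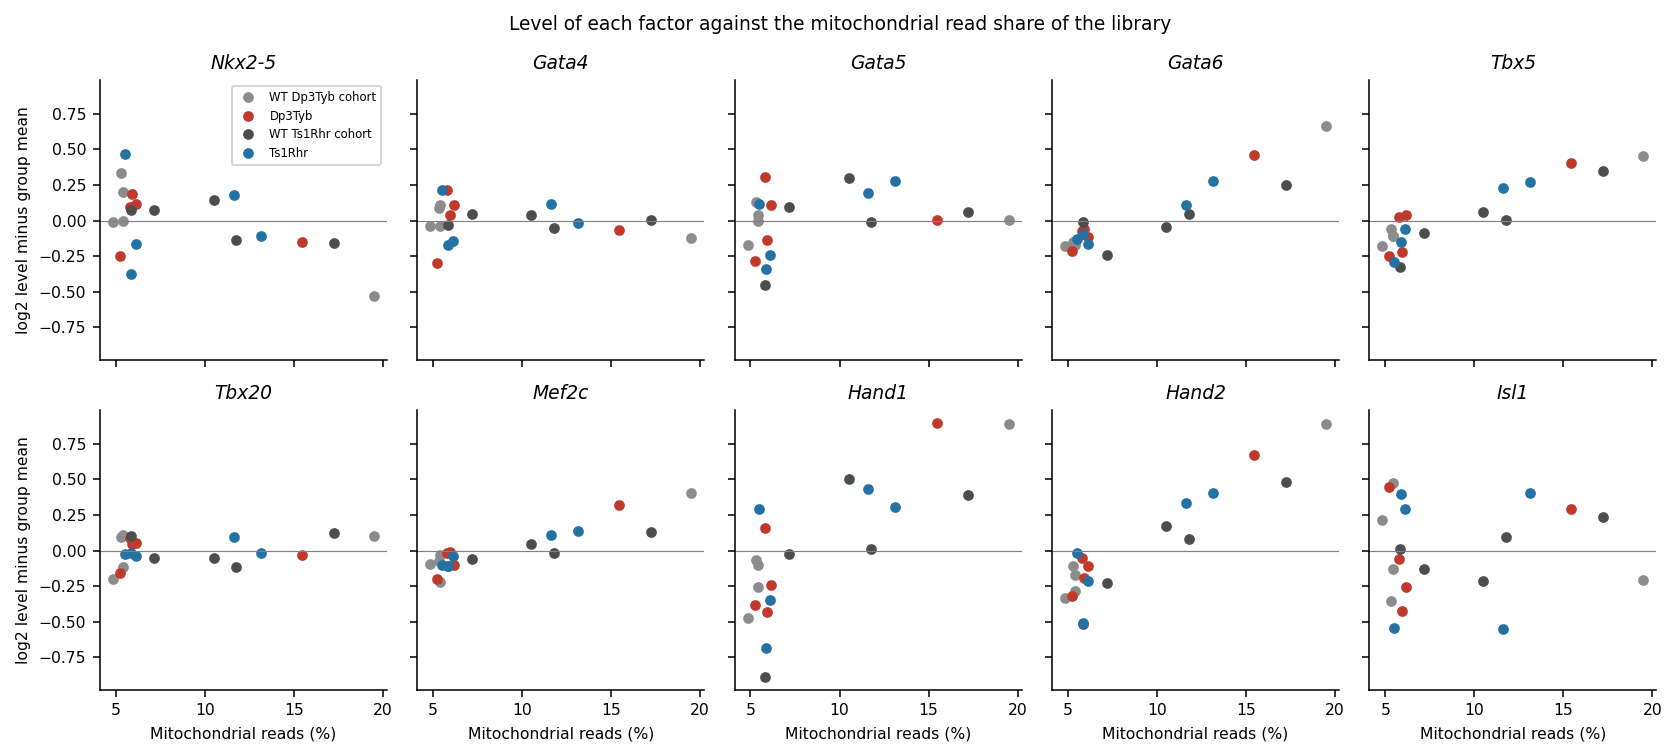
Log2 level of each factor minus its group mean against the percentage of mitochondrial reads, 1 point per heart and 1 colour per group. Hand1, Hand2, Gata6, Tbx5 and Mef2c stand higher in most of the 7 libraries over 10%, and Gata4, Gata5, Tbx20 and Isl1 show no such slope. Exceptions below their group mean include Gata6 in replicate 2 and Mef2c in replicate 1 of the WT littermates of Ts1Rhr.

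With the mitochondrial share as a term in the comparison of genotypes, the intervals narrowed for all 10 factors in Dp3Tyb and for 9 of 10 in Ts1Rhr, all but Nkx2-5, whether or not a factor moved with the share. In Dp3Tyb the smallest detectable change fell to 1.11-fold for Hand2, 1.08-fold for Gata6, 1.12-fold for Tbx5, 1.10-fold for Mef2c and 1.29-fold for Hand1. The log2 fold changes were then -0.0012 ± 0.05 for Hand2, 0.0026 ± 0.04 for Gata6 and 0.01 ± 0.06 for Tbx5, and 9 of 10 intervals lay inside a 1.5-fold change, all but that of Isl1. In Ts1Rhr the detectable change fell to 1.12-fold for both Gata6 and Tbx5, to 1.09-fold for Mef2c and to 1.21-fold for Hand2, while that of Hand1 went from 1.78- to 1.76-fold and that of Nkx2-5 from 1.34- to 1.41-fold. The count of intervals inside a 1.5-fold change stayed at 8 of 10 there. The fitted difference of Hand2 became 0.14 ± 0.09 and that of Hand1 0.11 ± 0.25. Still 0 of 10 factors passed in either strain, where 0.305% of genes did in Dp3Tyb and 0.168% in Ts1Rhr.
Leaving out the 7 libraries instead gave 4 against 4 hearts in Dp3Tyb and 3 against 2 in Ts1Rhr. In Dp3Tyb none of the 10 factors was called there, where 0.206% of genes were, and all 10 intervals lay inside a 1.5-fold change. In Ts1Rhr limma called 0 of 13929 genes (496 had an unadjusted p under 0.05, none of them a factor), and a call of Hand1 would have needed a 797-fold change, so the absence of calls there says nothing about stability. There 7 of 10 intervals lay inside a 1.5-fold change, those of Nkx2-5, Hand1 and Isl1 being wider and that of Hand1 reaching past 2-fold.

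Isl1 followed another difference between hearts. Its level was higher where the summed lung and foregut markers, a list that includes Nkx2-1, Sftpc and Sox2, were higher over the 20 libraries (r = 0.812, permutation p = 1e-05, the smallest these permutations can give, adjusted p = 4e-05 over 20 relations; rho = 0.811, adjusted p = 0.00015). The relation held without the 2 libraries farthest from the median (r = 0.805), within the Dp3Tyb cohort (r = 0.753, permutation p = 0.0145) and within the Ts1Rhr cohort (r = 0.894, permutation p = 0.00074). All 12 markers were detected in the series, and 10 were tested. The 10 had a median log2 fold change of 1.89 in Dp3Tyb, all higher, and of -1.70 in Ts1Rhr, all lower. None had an adjusted p under 0.05. At a limma unadjusted p under 0.05 there were 0 of the 10 in Dp3Tyb (2.8% of all genes) and 2 in Ts1Rhr (5.52%). There were 7 in the difference between strains (1.52%) and 5 between the WT cohorts (5.84%).
The sums ran from 234 to 885 in WT littermates of Dp3Tyb, 329 to 1123 in Dp3Tyb, 452 to 928 in WT littermates of Ts1Rhr and 284 to 814 in Ts1Rhr. Ts1Rhr replicates 1 and 3, which had the lowest Isl1, had sums of 284 and 293, and Dp3Tyb replicate 4, which had the highest Isl1 of its cohort, had 1123. Krt18, which the epicardium also makes, held between 24.9% and 95.8% of the sum.

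Markers of other cell types in which Isl1 is known to be made also had higher fitted values in Dp3Tyb, and most had lower ones in Ts1Rhr. Of the 7 sinus node and pacemaker markers, 7 were higher in Dp3Tyb (median log2 fold change 0.21), and 2 were higher and 5 lower in Ts1Rhr (median -0.06). Of the 9 neural crest and ganglion markers tested in each strain, 9 were higher in Dp3Tyb (median 0.65), and 3 were higher and 6 lower in Ts1Rhr (median -0.14). None of either list had an adjusted p under 0.05 in limma or an unadjusted p under 0.05. The pacemaker sums ran from 4069 to 5732 in WT littermates of Dp3Tyb, 5331 to 6691 in Dp3Tyb, 4853 to 6764 in WT littermates of Ts1Rhr and 3949 to 7104 in Ts1Rhr, and the ganglion sums from 231 to 573, 336 to 672, 306 to 550 and 250 to 614 in the same order. All the markers of both lists were detected in the series, the groups overlapped in both sums, and their part in the level of Isl1 was not tested.

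Fitted as a term over 20 libraries, also chosen after the data had been seen, a doubling of these markers went with 0.41 ± 0.09 more Isl1 on the log2 scale (SE, adjusted p = 0.00875 in limma) and with -0.15 ± 0.04 for Gata4 (adjusted p = 0.0257). Isl1 stayed called without any 1 library, whereas Gata4 was lost without Dp3Tyb replicate 1 or 4 or Ts1Rhr replicate 1, 3, 4 or 5 (adjusted p from 0.0552 to 0.172 in limma) and when values were scaled to non-mitochondrial reads (adjusted p = 0.28). The term called 3.65% of genes, 3.15% higher and 0.495% lower. Without Krt18 in the list Isl1 stayed called (adjusted p = 0.00223) and Gata4 did not (adjusted p = 0.0609). Neither was called in 1 cohort alone (adjusted p = 0.451 and 0.149 for Isl1), although Isl1 had a positive slope in both, 0.33 and 0.56.
Nkx2-5 (-0.21 ± 0.08), Gata5 (-0.20 ± 0.07) and Tbx20 (-0.11 ± 0.03) had negative slopes that did not pass over all libraries. The slopes of Hand1 (-0.34 ± 0.16) and Hand2 (-0.23 ± 0.13) were steeper and less certain, and those of Gata6, Tbx5 and Mef2c lay between -0.08 and -0.09. Without 1 library the slope of Gata6 ran from -0.1199 to -0.0362 and that of Tbx5 from -0.1242 to -0.0493. Over all libraries 9 of 10 factors had a negative slope, Gata4 alone being called among them. With the mitochondrial share in the same fit Nkx2-5 (adjusted p = 0.00379), Tbx20 (0.0131) and Hand2 (0.00435) passed in limma as well, all lower, in a fit that called 1715 of 15348 genes. The correlations with the marker sum were -0.665 for Gata4 (permutation p = 0.00083, adjusted p = 0.00237; rho = -0.645) and -0.691 for Tbx20 (permutation p = 0.00095, adjusted p = 0.00237; rho = -0.589). Gata5 had r = -0.525 (permutation p = 0.0185, adjusted p = 0.0411; rho = -0.513, adjusted p = 0.0455). Nkx2-5 passed by rank (rho = -0.651, permutation adjusted p = 0.00674) and not by r (-0.488, adjusted p = 0.0537), with r = -0.297 over the 10 Dp3Tyb-cohort libraries and -0.876 over the 10 of Ts1Rhr. The correlation of Tbx20 was -0.957 within the Dp3Tyb cohort and -0.139 within the Ts1Rhr cohort, where it did not hold, and that of Gata4 was -0.680 and -0.870.

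**Figure D5:**
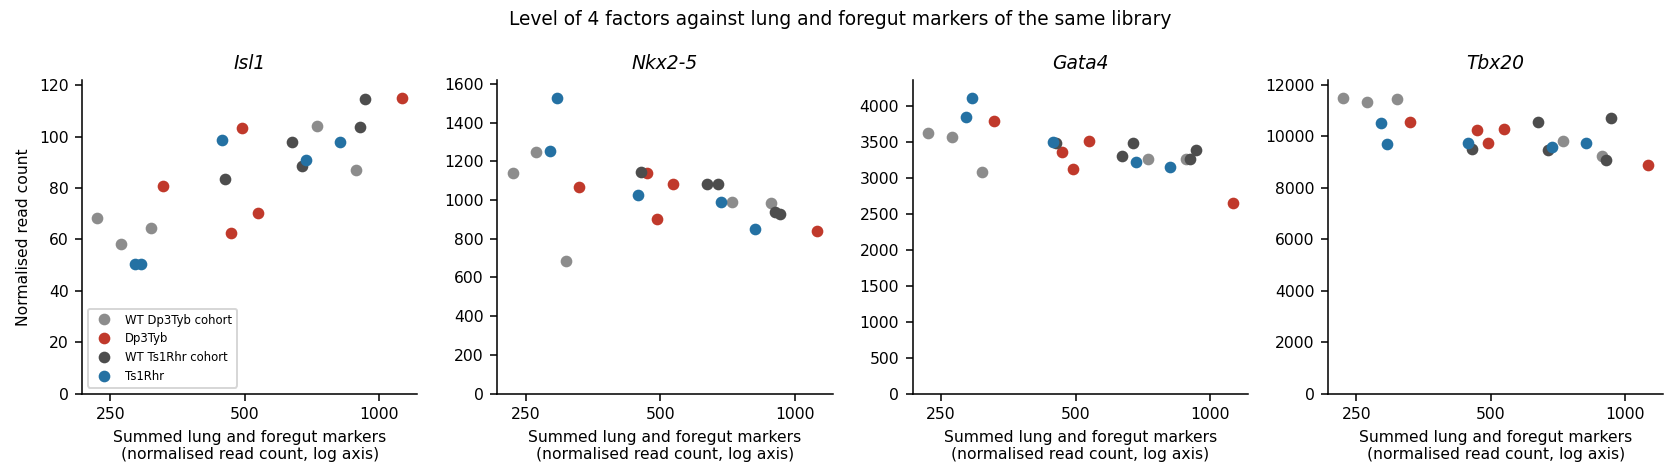
Normalised read count of Isl1, Nkx2-5, Gata4 and Tbx20 (axes from 0) against the summed lung and foregut markers of the same library (log axis), 1 point per heart and 1 colour per group. Isl1 is higher where the marker sum is higher (r = 0.812), and Gata4 (r = -0.665) and Tbx20 (r = -0.691) are lower.

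With the marker level as a term, the difference of Isl1 between Ts1Rhr and WT moved from -0.38 ± 0.21 to -0.05 ± 0.16 on the log2 scale, and that between Dp3Tyb and WT from 0.17 ± 0.21 to 0.04 ± 0.17. The contrast between strains moved from 0.55 ± 0.31 to 0.15 ± 0.23. None of the 10 factors passed in either strain with this term, where 0.0135% of genes did in Dp3Tyb and 0% in Ts1Rhr. The fitted differences of the others moved too. With the term 9 factors were higher and 1 lower in Dp3Tyb (3 and 7 without it), with a median log2 fold change of 0.04. In Ts1Rhr 0 were higher and 10 lower (4 and 6 without it), with a median of -0.10, and Hand1 went from -0.07 ± 0.27 to -0.36 ± 0.28 and Hand2 from -0.03 ± 0.20 to -0.16 ± 0.23. In the contrast between strains 10 were higher and 0 lower (5 and 5 without it), with a median of 0.16. The part of such tissue in the level of Isl1 was not tested.

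The factors also varied with each other. Over the 20 libraries, after subtraction of group means, the closest of the 45 pairs were Gata6 with Mef2c (r = 0.931) and Hand1 with Hand2 (r = 0.928). With the mitochondrial share removed from both genes, the correlation of Gata6 with Mef2c was 0.421 and that of Hand1 with Hand2 was 0.881. Nkx2-5 and Gata4 had 0.807 before and 0.859 after removal, and Gata4 and Isl1 were opposed, with -0.707 and -0.708. The pairs share their libraries and are given as a description.

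For each factor up to 3 genes with the most similar profile among 15348 tested were named by the correlation of log2 levels minus group means over 20 libraries. Those of Hand2 were Kmt5a (0.987), Ywhah (0.986) and Prc1 (0.986), and those of Gata6 were Fermt2 (0.989), Dynlt3 (0.981) and Lrrfip2 (0.978). Tbx5 was closest to Taf7 (0.970), D3Ertd751e (0.969) and Txndc9 (0.965), and Mef2c to Stk24 (0.974), Ppp2r3a (0.971) and Cdh2 (0.969). For these 4 factors between 2142 and 2269 genes had a correlation over 0.8, so that the first 3 stand for a large set.
Hand1 had 1038 such genes and was closest to Smarca4 (0.972), Papss2 (0.947) and Igf2os (0.937). Nkx2-5 had 175, among them Polr2c (0.919) and Eng (0.915), a receptor of the endothelium. Isl1 had 140, led by Egfr (0.954), Map2 (0.930), a neuronal microtubule protein, and Hoxa4 (0.929).
Gata4 had 33, led by Gyg1 (0.899), Ehbp1l1 (0.898) and Mpi (0.891), and Gata5 had 22, led by Ndc1 (0.883), Hmga1 (0.868) and Slitrk5 (0.866). Tbx20 had 5, with Fgf9 (0.836), Ldb3 (0.831), a protein of the Z-disc, and Decr1 (0.820) closest.

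Relatives, partners and targets of the factors were taken as 3 lists. Of 19 relatives, 12 were tested in each strain and 0 had an adjusted p under 0.05 in limma, with a median log2 fold change of 0.20 in Dp3Tyb and -0.05 in Ts1Rhr. At an unadjusted p under 0.05 there were 0 in Dp3Tyb and 1 in Ts1Rhr. The largest fitted differences in Dp3Tyb were those of Tbx1 (1.56 ± 0.88), a factor of the pharyngeal region, Tbx4 (1.26 ± 0.84), a factor of lung mesenchyme, and Gata1 (0.73 ± 0.78), the GATA factor of red blood cells. In Ts1Rhr they were those of Tbx4 (-1.56 ± 0.85), Tbx1 (-0.69 ± 0.45) and Tcf21 (0.27 ± 0.09), a factor of epicardial derivatives. The lung mesenchyme list holds 6 genes, among them Tbx4 itself and Foxf1 and Fgf10, which stand in the lists of partners and targets. Its other 5 genes besides Tbx4 had higher fitted values in Dp3Tyb and lower ones in Ts1Rhr, none called, and their part in these differences was not tested.

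Of 33 partner regulators, 31 were tested in each strain and 0 passed with adjusted or unadjusted p in either, with medians of -0.0095 and -0.04. Foxf1, a factor of lung mesenchyme, had the largest fitted difference in both (1.63 ± 1.11 in Dp3Tyb and -1.04 ± 0.91 in Ts1Rhr), followed by Shox2, a factor of the sinus node (0.37 ± 0.21 and -0.35 ± 0.41), and Prrx1, a factor of mesenchyme (0.36 ± 0.23 and -0.26 ± 0.21).
Of 24 target genes, 23 were tested and 0 passed in either strain, with 0 and 1 at an unadjusted p under 0.05 and medians of -0.07 and 0.0088. The largest differences were those of the growth factor Fgf10 (0.25 ± 0.34), Ckm (-0.24 ± 0.19) and the calcium release channel Ryr2 (-0.18 ± 0.11) in Dp3Tyb, and of Fgf10 (-0.48 ± 0.40), the natriuretic peptide Nppb (0.30 ± 0.29) and Ryr2 (-0.22 ± 0.09) in Ts1Rhr.

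With the mitochondrial share the lists moved in both directions. Of the 31 partners 14 were higher and 4 lower, of the 23 targets 9 higher and 6 lower, and of 13 relatives 4 higher and 3 lower, with 29.7% and 31.7% of all genes as the background. Among targets, picked after their values were seen, the troponin Tnnt2 was higher by 0.84 ± 0.06 (log2 per 10 percentage points), Tnni3 by 0.48 ± 0.05 and Bmp10 by 0.45 ± 0.08, while Mybpc3 (-0.48 ± 0.08) and the atrial peptide Nppa (-0.37 ± 0.11) were lower. The 12 cardiomyocyte markers held 6 that were higher and 3 that were lower.

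Overlapping genes limit the reading of some factors, because the sources used here do not say whether reads were counted by strand. Hand2 shares 468 exonic bases with the antisense gene Hand2os1, which reached 469 normalised read counts, and 201 with Gm34030 (up to 157). Gata6 shares 1154 bases with Gata6os (up to 205), Gata5 shares 258 with Gata5os (up to 32.2) and Tbx5 shares 194 with Gm43050 (up to 26.6). Hand1 shares 735 with Gm32915 on the opposite strand, whose level was not analysed here. Reads of such a pair cannot be told apart without strand. The genes themselves lie at chr8:57320983-57324517 (Hand2), chr2:180325088-180335503 (Gata5), chr5:119796514-119885220 (Tbx5), chr17:26838664-26844988 (Nkx2-5), chr14:63198914-63271712 (Gata4), chr9:24720812-24774303 (Tbx20), chr13:83504017-83667079 (Mef2c), chr11:57828713-57832147 (Hand1) and chr13:116298270-116309688 (Isl1) in build GRCm38.p6, and Gata6 lies on chromosome 18.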

How the data were processed

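Hearts of 20 E13.5 embryos were profiled by poly(A) RNA sequencing. Per the submitters' processing notes, Trimmomatic (0.36), STAR (2.5.2a), RSEM (1.2.31) and DESeq2 were used with build GRCm38. The annotation and use of strand are not given in the sources used here. The authors deposited 1 signal table of read counts divided by size factors. In every library 100% of values were whole multiples of 1 read within 0.01 reads, so whole reads were recovered. Sums of these reads gave the depth.

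The main test was limma (3.58.1, R 4.3.3) with a trended, robust prior on log2(value + 1), 2-sided, over all genes that reached 10 in 5 or more libraries, and p-values were adjusted by Benjamini-Hochberg (called under 0.05). Fold changes are on the log2(value + 1) scale, which understates those of low genes. DESeq2 (1.42.0) and edgeR (4.0.16) on recovered reads were alternatives. The limma fits were also run on simulated counts with known changes, and that outcome is not given here. Groups came from the genotype labels, and no label states separate litters, so p-values measure the spread between these samples. Permutation tests drew 100000 resamples, or all orders for 7 libraries. Counting SDs cover counting error only, whereas the confidence intervals come from the spread between hearts in the limma fits.

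Symbols and exon lengths came from GENCODE vM39 (44565 of 48795 identifiers, 91.3%), positions and promoters from RefSeq (GRCm38.p6). Named genes were the 10 factors, every listed relative, partner or target with an adjusted p under 0.05 or else the 3 with the largest absolute change in each strain, and the 3 genes most like each factor. A gene that this rule names is not reported here. The members and lists were chosen with earlier results of these data known.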

Additional observations from a re-analysis of the deposited data

Results flagged for a closer look

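Values far from the rest of their group, by the gap to the nearest sample over the range of the 5 samples and above the 95% critical value of Dixon's test, occurred in 8 of 40 groups of values, where chance gives about 1 in 20, and all 8 belonged to libraries over 10% mitochondrial reads. WT replicate 5 of the Dp3Tyb cohort, at 19.5% mitochondrial reads, held 5 of them: Gata6 at 3764 normalised read counts (next highest 2144), Hand2 at 3189 (1602), Mef2c at 3200 (2368), Tbx5 at 2102 (1475) and Hand1 at 584 (300). Dp3Tyb replicate 5, at 15.5%, held 2, Gata6 at 3224 (2250) and Hand2 at 2688 (1627). Ts1Rhr replicate 1, at 11.6%, was the highest of its group for Tbx20 at 10528 (9755).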

How the results depend on the processing

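No factor passed in Dp3Tyb, in Ts1Rhr or in the difference between strains under any setting run, while counts of other genes, the sizes of differences and some signs moved. Where no gene at all passed, the absence of calls says nothing about the factors. This was so in Ts1Rhr without the libraries over 10% mitochondrial reads, without the 2 libraries labelled with heart defects and with the lung and foregut marker term. It was so for the difference between strains with no filter on low values, TMM scaling, a sex term, without those 2 libraries, with the marker term and in part of the fits that left out 1 library. The slope on the mitochondrial share and every use of the lung and foregut marker term were chosen after seeing the data, and the mitochondrial share as a term in the comparisons was planned. The cause of each shift was not tested. No paired analysis was made, because the labels give no replicate numbers and the numbers used here only follow the order of the samples in the series.

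For Dp3Tyb the count of genes past the threshold was 8, and became 4 with no filter on low values, 30 with DESeq2 on recovered reads, 57 with array weights, 4 with sex term, 45 with mitochondrial share term, 30 without libraries over 10% mitochondrial reads, 17 with all 20 libraries in the fit and 2 with lung and foregut marker term. For Ts1Rhr the count of genes past the threshold was 4, and became 21 with DESeq2 on recovered reads, 16 with array weights, 25 with mitochondrial share term, 0 without libraries over 10% mitochondrial reads, 2 with untrended, non-robust prior, 11 with all 20 libraries in the fit, 0 without the 2 Ts1Rhr libraries labelled with heart defects and 0 with lung and foregut marker term. For the difference between strains the count of genes past the threshold was 2, and became 0 with no filter on low values, 0 with TMM scaling, 0 with sex term, 0 without the 2 Ts1Rhr libraries labelled with heart defects and 0 with lung and foregut marker term. For the WT cohorts the count of genes past the threshold was 0, and became 5 with DESeq2 on recovered reads, 3297 with array weights and 3 with mitochondrial share term. For the lung and foregut marker term the count of genes past the threshold was 560, and became 1715 with mitochondrial share as a further term, 79 for Dp3Tyb cohort alone, 44 for Ts1Rhr cohort alone and 1532 for libraries under 10% mitochondrial reads alone. For the mitochondrial share term the count of genes past the threshold was 9422, and became 5686 with log2 total reads as a term, 5646 for Ts1Rhr cohort alone and 5 for libraries under 10% mitochondrial reads alone.

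For the WT cohorts the count of factors past the threshold was 0, and became 2 with array weights. For the lung and foregut marker term the count of factors past the threshold was 2, and became 1 with scaling to total non-mitochondrial reads, 1 with markers without Krt18, 5 with mitochondrial share as a further term, 0 for Dp3Tyb cohort alone, 0 for Ts1Rhr cohort alone and 5 for libraries under 10% mitochondrial reads alone. For the mitochondrial share term the count of factors past the threshold was 6, and became 0 for libraries under 10% mitochondrial reads alone.

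For Dp3Tyb, log2 values changed sign with these settings, given with the new value: DESeq2 on recovered reads (Nkx2-5 -0.0105), edgeR on recovered reads (Nkx2-5 -0.0103 and Tbx5 0.0026), TMM scaling (Tbx5 0.0004), array weights (Nkx2-5 -0.0521, Gata6 0.0495, Tbx5 0.0108, Hand2 0.0208 and Isl1 -0.0063), mitochondrial share term (Gata6 0.0026 and Tbx5 0.013), without libraries over 10% mitochondrial reads (Nkx2-5 -0.0793, Gata6 0.031, Tbx5 0.0078 and Hand2 0.0212) and lung and foregut marker term (Gata4 0.0108, Gata6 0.027, Tbx5 0.0458, Mef2c 0.0056, Hand1 0.0331 and Hand2 0.055).

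For Ts1Rhr, log2 values changed sign with these settings, given with the new value: array weights (Nkx2-5 -0.0477, Gata4 -0.0219 and Gata5 -0.131), mitochondrial share term (Mef2c 0.0291, Hand1 0.1107 and Hand2 0.1428), without libraries over 10% mitochondrial reads (Tbx20 -0.0483, Hand1 0.1416 and Hand2 0.0897), without the 2 Ts1Rhr libraries labelled with heart defects (Gata5 -0.0578 and Tbx20 -0.0252) and lung and foregut marker term (Nkx2-5 -0.1353, Gata4 -0.0408, Gata5 -0.071 and Tbx20 -0.0115).

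For the difference between strains, log2 values changed sign with these settings, given with the new value: DESeq2 on recovered reads (Hand2 -0.0303), edgeR on recovered reads (Hand2 -0.0218), TMM scaling (Hand1 -0.0058 and Hand2 -0.0051), array weights (Gata5 0.1896 and Mef2c 0.0357), mitochondrial share term (Hand1 -0.1489 and Hand2 -0.1378), without libraries over 10% mitochondrial reads (Hand1 -0.2088 and Hand2 -0.0684), without the 2 Ts1Rhr libraries labelled with heart defects (Gata5 0.1259 and Mef2c 0.0603) and lung and foregut marker term (Nkx2-5 0.1196, Gata4 0.0397, Gata5 0.1623, Tbx20 0.0053 and Mef2c 0.0704).

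For the WT cohorts, log2 values changed sign with these settings, given with the new value: array weights (Nkx2-5 -0.0729, Gata4 -0.0254 and Mef2c 0.0514), mitochondrial share term (Gata5 -0.0046, Hand1 -0.0436 and Hand2 -0.022), without libraries over 10% mitochondrial reads (Nkx2-5 -0.0019, Gata4 -0.0106, Gata5 -0.1446 and Hand1 -0.0611) and lung and foregut marker term (Mef2c 0.0428).

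For the lung and foregut marker term, log2 values changed sign with these settings, given with the new value: Ts1Rhr cohort alone (Tbx5 0.0033).

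For the mitochondrial share term, log2 values changed sign with these settings, given with the new value: scaling to total non-mitochondrial reads (Tbx20 -0.0703 and Isl1 -0.0871), Dp3Tyb cohort alone (Isl1 -0.025), Ts1Rhr cohort alone (Gata4 0.0292) and libraries under 10% mitochondrial reads alone (Nkx2-5 0.3269, Gata4 1.0487, Gata6 -0.5298 and Isl1 -1.5431).

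Leaving out 1 library at a time gave these ranges of counts and of log2 values that changed sign. For Dp3Tyb, genes called from 2 to 13, Gata4 from -0.0942 to 0.035, Gata5 from -0.0082 to 0.139, Gata6 from -0.1348 to 0.1459, Hand1 from -0.2903 to 0.1568, Hand2 from -0.2007 to 0.1897, Mef2c from -0.1231 to 0.059, Nkx2-5 from -0.1168 to 0.0991 and Tbx5 from -0.1051 to 0.109. For Ts1Rhr, genes called from 1 to 6, Gata5 from -0.0134 to 0.1846, Hand1 from -0.2887 to 0.1047, Hand2 from -0.1614 to 0.0934, Mef2c from -0.0552 to 0.0125, Nkx2-5 from -0.0158 to 0.1945 and Tbx20 from -0.027 to 0.0322. For the difference between strains, genes called from 0 to 3, Gata5 from -0.1166 to 0.0815, Gata6 from -0.0105 to 0.2702, Hand1 from -0.2236 to 0.2235, Hand2 from -0.1674 to 0.223, Mef2c from -0.1021 to 0.0801 and Nkx2-5 from -0.2174 to 0.0309. For the WT cohorts, genes called from 0 to 2, Gata4 from -0.0159 to 0.0429, Gata5 from -0.0438 to 0.1439, Mef2c from -0.0819 to 0.0739 and Nkx2-5 from -0.0741 to 0.1418. For the lung and foregut marker term, genes called from 333 to 706 and factors called from 1 to 3. For the mitochondrial share term, Gata4 from -0.0734 to 0.0007 and Isl1 from -0.0432 to 0.2181.

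Differences that kept their sign moved too. Without 1 library the Isl1 difference in Dp3Tyb ran from 0.0581 to 0.288, and in Ts1Rhr that of Isl1 ran from -0.4852 to -0.246, that of Tbx5 from -0.2445 to -0.076 and that of Gata6 from -0.1933 to -0.061, none of them called.

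Isl1 was the factor most limited by depth, with 22 reads in the library that held the fewest and a counting SD of 0.17 on the log2 scale.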
